A study of Rattus norvegicus and Bos taurus with 12 samples.

Results

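The genes of sarcoplasmic reticulum (SR) calcium handling were taken as a set of 9, namely Atp2a2, Ryr2, Pln, Casq2, Slc8a1, Cacna1c, Jph2, Trdn and Hrc. They were found by symbol, whatever the case of its letters, in the tables of adult rat ventricular myocytes (ARVM) and of bovine cardiac fibroblasts (Cfib). All 9 were among the 7052 genes listed for ARVM, and 1 of the 9, SLC8A1, was among the 2115 listed for Cfib. The other 8 were not listed for Cfib and have no value there. Both tables hold genes that the authors had selected for a difference between the groups (p under 0.05), so being listed is itself no result.

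RNA from 12 libraries, 3 in each of 4 groups, was depleted of ribosomal RNA and sequenced. Fresh ARVM (libraries 4, 5 and 6) were myocytes of adult Sprague Dawley rats, liberated by collagenase perfusion of the heart. Per the study they were freshly isolated and not treated. PH-CM ARVM (libraries ha2, ha209 and ha211) came from the same strain and were kept for 7 days in media conditioned by fibroblasts of calves with pulmonary hypertension (PH). PH Cfib were right ventricular fibroblasts of neonatal calves that had spent 2 weeks in hypobaric hypoxia, and CO Cfib were those of control calves at ambient Denver altitude. Both kinds of Cfib had been grown from digested biopsies in serum-containing medium and used at passage 2 to 3. Per the study's methods, confluent Cfib were washed and kept in serum-free medium, which was collected as conditioned media before the cells were harvested or passaged. The labels state the treatment as serum of cows at low or at high altitude, and the groups are named here after the study's methods. ARVM cultured without PH-CM were not analysed here, so the effects of the media and of 7 days in culture cannot be told apart. The Cfib libraries of a group came from separate calves. Whether the ARVM libraries of a group are separate animals is not given in the sources used here, so the ARVM p-values measure the spread between libraries, which may be technical.

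In the heartbeat, calcium enters the cardiomyocyte through the L-type channel of the T tubule and opens the ryanodine receptor of the facing SR membrane, which releases the stored calcium that activates the sarcomere. The pump SERCA2a then returns calcium to the SR while the sodium-calcium exchanger carries the rest out of the cell. Phospholamban holds the pump back until it is phosphorylated. Calsequestrin and the histidine-rich calcium binding protein buffer calcium inside the SR, triadin ties calsequestrin to the release channel, and junctophilin holds the SR and T tubule membranes close together. Loss of SERCA relative to phospholamban is a known feature of failing heart muscle.

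All 9 genes were lower in PH-CM ARVM than in fresh ARVM as deposited. By contrast, all 9 were higher when each library was expressed relative to its own summed cardiomyocyte markers, a rescaling described further on. On that scale 96.4% of all listed genes were called higher too. With the markers Mb and Myh6 left out of the sum, Atp2a2, Casq2 and Hrc did not pass the test. The ARVM values are normalized counts, that is, reads per gene divided by 1 size factor per library. Log2 fold changes (PH-CM minus fresh) are differences of mean log2(normalized count + 1), tested with limma over all 7052 listed genes with Benjamini-Hochberg adjustment. Calls at an adjusted p under 0.05 were made for 97.6% of listed genes and were higher in PH-CM for 53.9% and lower for 43.7%, against 9 of 9 lower here. Calls with a log2 fall of at least 1 made up 16.0% of listed genes and 6 of these 9. The median log2 fold change was -1.36 over the 9 genes, 0.37 over all listed genes and -0.76 over all listed genes that were called lower. The libraries of the groups did not overlap for any of the 9, as for 100% of listed genes, 44.9% of them being lower.

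The depth was high for these genes. Each ARVM library held between 12122463 and 18842171 reads on listed genes. The lowest count of any of the 9 in a library was 860 reads, for which counting error alone is 3.41%. The coefficient of variation over the 3 libraries of a group ran from 1.70% to 16.8% for the 9, beside medians over all listed genes of 9.74% in fresh ARVM and 10.1% in PH-CM ARVM.

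**Figure D1:**
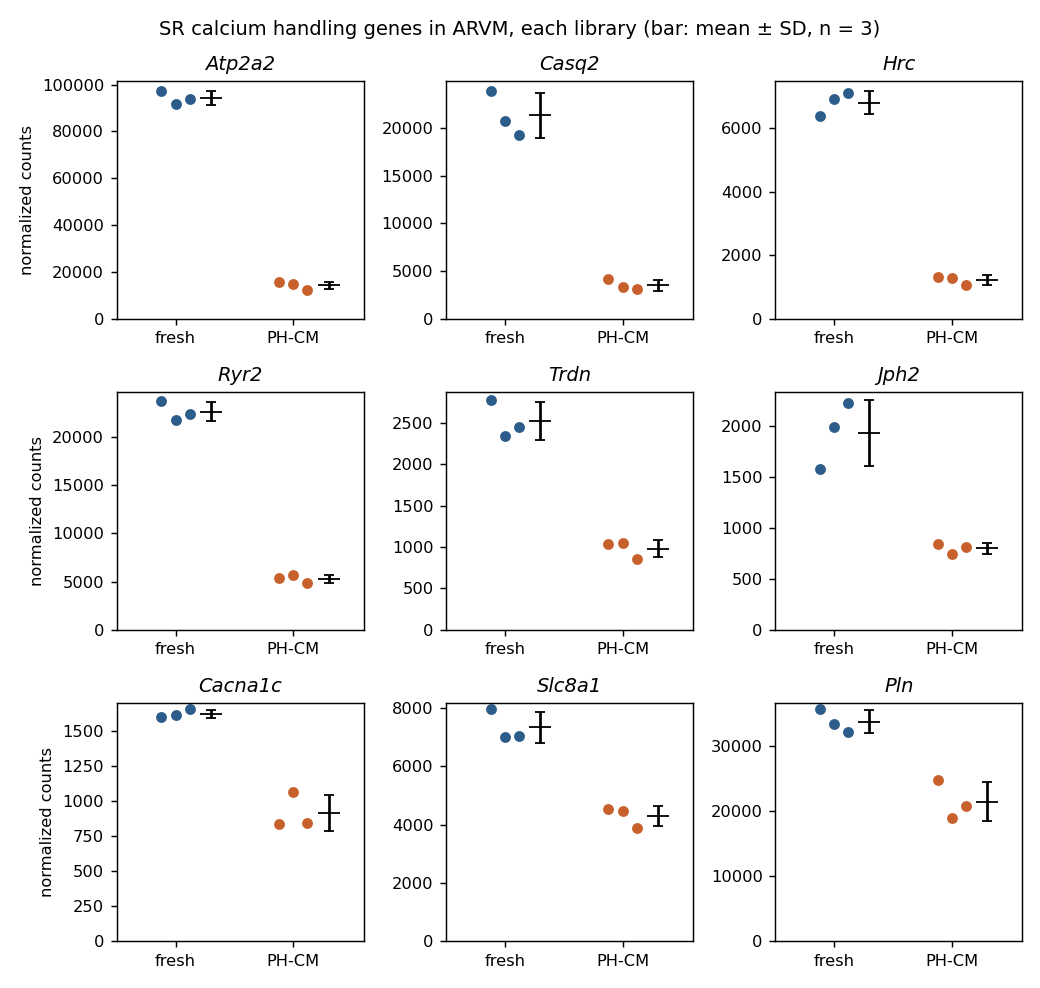
Normalized counts of the 9 SR calcium handling genes in each ARVM library (points) with the mean ± SD of the 3 libraries of a group (bars), on linear axes that start at 0, genes ordered from the largest to the smallest fall. Every PH-CM library lay below every fresh library as deposited, from 94257 against 14213 on average for Atp2a2 to 33725 against 21409 for Pln. Relative to summed cardiomyocyte markers the order of the groups was the opposite for all 9, and 96.4% of all listed genes were called higher.

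The sequences before the starts of 3 of these genes are shown because they mark the largest fall (Atp2a2), the smallest (Pln) and the gene nearest to Atp2a2 in its change (Casq2). They are the 250 bases upstream of the annotated start in RefSeq for the rat assembly GRCr8, written 5′ to 3′ on the strand of the gene. All 9 symbols matched. The authors' rat build was rn6, and no measurement of these data bears on these positions directly. Capitals mark the GC box GGGCGG, the E-box CANNTG and the MEF2 motif, each searched on both strands.
Atp2a2: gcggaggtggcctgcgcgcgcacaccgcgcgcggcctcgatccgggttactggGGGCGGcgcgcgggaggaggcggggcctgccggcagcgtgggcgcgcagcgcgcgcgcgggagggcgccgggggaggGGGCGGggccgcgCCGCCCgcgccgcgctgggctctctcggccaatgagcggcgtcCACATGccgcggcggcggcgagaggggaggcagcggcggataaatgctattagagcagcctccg
Casq2: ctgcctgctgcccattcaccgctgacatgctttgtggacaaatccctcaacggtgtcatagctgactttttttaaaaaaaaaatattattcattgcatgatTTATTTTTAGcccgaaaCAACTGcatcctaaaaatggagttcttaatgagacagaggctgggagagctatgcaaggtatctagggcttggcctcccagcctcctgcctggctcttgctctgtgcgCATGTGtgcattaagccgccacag
Pln: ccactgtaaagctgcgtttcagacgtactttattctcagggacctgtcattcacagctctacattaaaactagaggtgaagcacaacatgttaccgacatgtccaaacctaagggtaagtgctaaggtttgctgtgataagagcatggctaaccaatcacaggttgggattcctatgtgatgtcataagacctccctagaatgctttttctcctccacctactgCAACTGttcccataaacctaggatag
The Atp2a2 stretch (chr12:39733269-39733518, plus strand) was 80% G and C, more than in 98.9% of the 33465 rat promoters in the table, whose median was 51.2%. That of Casq2 (chr2:192214306-192214555, plus strand) was 46.4% G and C, and that of Pln (chr20:33172244-33172493, plus strand) 44%. A GC box was found in 2 of the 9 genes, Atp2a2 and Ryr2, and in 30.5% of all promoters of this length. An E-box was found in 6 of 9 and in 65.5% of all, and a CCAAT in 5 of 9 and in 34.0% of all. The MEF2 motif, read by a muscle transcription factor, was found only in Casq2 among the 9 and in 1.68% of all promoters. TATAAA (12.9% of all promoters), AGATAA (10.3%) and the CArG box (1.497%) were found in none of the 9 windows. A match of letters is a description and not a binding site, and no count among the 9 was read against the falls.

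Of the 9 genes, the pump of SR calcium uptake fell most. Atp2a2 has products that include SERCA2a, and its counts are of the whole gene and do not separate them. Atp2a2 had 97275, 91497 and 93997 normalized counts in fresh ARVM 4, 5 and 6. In the PH-CM libraries ha2, ha209 and ha211 it had 15473, 14722 and 12444. The 6 libraries formed a high and a low group with a wide gap between them. The mean fell from 94257 ± 2897 (SD, n = 3) to 14213 ± 1577 (SD, n = 3), or 6.63-fold, with a log2 fold change of -2.73 (SE 0.10, 95% interval -2.97 to -2.50, limma adjusted p = 2.81e-07). Of all listed ARVM genes, 2.50% had a lower log2 fold change.

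Pln, which encodes the pump's inhibitor phospholamban, changed least of the 9. Its normalized counts were 35674, 33406 and 32095 in the fresh libraries and 24668, 18851 and 20708 in the PH-CM libraries. The groups were separate, the nearest libraries of the 2 groups being at 32095 and 24668. The log2 fold change was -0.66 (SE 0.11, 95% interval -0.91 to -0.41, limma adjusted p = 0.000654), and PH-CM ARVM kept 63.5% of the fresh mean against 15.1% for Atp2a2. In the current annotation Pln lies within Cep85l, which was listed with a log2 fold change of -1.35, and the sources used here do not say whether reads were counted by strand.

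The number of Atp2a2 counts per Pln count in the same library does not depend on the size factor. Such a ratio can still change with the mix of cells in a library, which was not tested. The Atp2a2 to Pln ratio was 2.73, 2.74 and 2.93 in fresh ARVM and 0.627, 0.781 and 0.601 in PH-CM ARVM. The mean ratio went from 2.80 ± 0.113 (SD, n = 3) to 0.670 ± 0.0972 (SD, n = 3), a log2 change of -2.07 (SE 0.12) that was the largest of the 36 ratios among the 9 genes. Since counts are not per length, the change of such a ratio can be read and its level cannot.

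The 4 of the 9 genes that serve SR calcium release and storage all fell as deposited. Ryr2, the release channel, had 23694, 21752 and 22391 normalized counts in fresh ARVM and 5409, 5654 and 4832 in PH-CM ARVM. Its log2 fold change was -2.10 (SE 0.07, 95% interval -2.27 to -1.92, limma adjusted p = 2.57e-07), and PH-CM ARVM kept 23.4% of the fresh mean. Its fall had the smallest standard error of the 9.

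Casq2, cardiac calsequestrin, had 23867, 20752 and 19297 normalized counts in fresh ARVM and 4166, 3281 and 3061 in PH-CM ARVM. The mean fell from 21305 ± 2335 (SD, n = 3) to 3503 ± 585 (SD, n = 3), a log2 fold change of -2.61 (SE 0.13, limma adjusted p = 1.02e-06). This was nearest to that of Atp2a2, and the Atp2a2 to Casq2 ratio overlapped between the groups, at 4.45 ± 0.399 (SD, n = 3) in fresh ARVM and 4.09 ± 0.387 (SD, n = 3) in PH-CM ARVM.

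Hrc, the histidine-rich calcium binding protein of the SR lumen, had 6397, 6908 and 7122 normalized counts in fresh ARVM and 1321, 1275 and 1049 in PH-CM ARVM. PH-CM ARVM kept 17.8% of the fresh mean, with a log2 fold change of -2.49 (SE 0.09, limma adjusted p = 3.28e-07). Trdn, triadin, fell less than the other 3 genes of release and storage, from 2776, 2344 and 2451 normalized counts to 1041, 1043 and 860. Its log2 fold change was -1.36 (SE 0.10, limma adjusted p = 8.68e-06), with 38.9% of the fresh mean kept. Counts of Casq2 per count of Trdn accordingly went from 8.44 ± 0.510 (SD, n = 3) to 3.57 ± 0.428 (SD, n = 3), and those of Hrc per Trdn from 2.72 ± 0.360 (SD, n = 3) to 1.24 ± 0.0273 (SD, n = 3), in each case without overlap of the libraries.

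Jph2 and Cacna1c, which belong to the dyad where the T tubule meets the SR, fell less than Atp2a2 and Ryr2. Jph2, junctophilin 2, had 1578, 1988 and 2218 normalized counts in fresh ARVM and 844, 742 and 810 in PH-CM ARVM. The fresh libraries were spread more widely than those of any other of the 9 genes, with fresh ARVM 4 the lowest, and still lay above all PH-CM libraries. The log2 fold change was -1.26 (SE 0.12, 95% interval -1.55 to -0.97, limma adjusted p = 4.60e-05). Cacna1c, the pore of the L-type calcium channel, had 1598, 1610 and 1651 normalized counts in fresh ARVM and 836, 1064 and 840 in PH-CM ARVM, where library ha209 was higher than the other two. Its log2 fold change was -0.84 (SE 0.10, limma adjusted p = 0.000132), with 56.4% of the fresh mean kept. Ryr2 counts per Cacna1c count went from 14.0 ± 0.743 (SD, n = 3) to 5.85 ± 0.585 (SD, n = 3), a log2 change of -1.26 (SE 0.09).

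Slc8a1, the sodium-calcium exchanger of the cell membrane, fell little. Its normalized counts were 7967, 7023 and 7055 in fresh ARVM and 4537, 4470 and 3885 in PH-CM ARVM. PH-CM ARVM kept 58.5% of the fresh mean, with a log2 fold change of -0.77 (SE 0.08, 95% interval -0.96 to -0.59, limma adjusted p = 6.22e-05). Atp2a2 counts per Slc8a1 count were 12.9 ± 0.577 (SD, n = 3) in fresh ARVM and 3.30 ± 0.104 (SD, n = 3) in PH-CM ARVM, a log2 change of -1.96 (SE 0.05). Leaving out any 1 of the 6 libraries kept each of the 9 genes called lower as deposited. It also left every log2 fold change of the 9 inside its 95% interval. In these fits 6452 to 6695 of the 7052 listed genes were called, and 2917 to 3000 were called lower. The edgeR and DESeq2 tests on the recovered reads also called all 9 lower. Of all genes tested, edgeR called 96.7% in either direction and 44.5% lower, and DESeq2 94.6% and 43.0%.

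The 9 genes thus fell by unequal amounts as deposited. Relative to summed cardiomyocyte markers all 9 were called higher, as were 96.4% of all listed genes. Atp2a2, Casq2, Hrc and Ryr2 formed the group of large falls (log2 fold changes of -2.73 to -2.10), Trdn and Jph2 lay between, and Cacna1c, Slc8a1 and Pln had log2 falls under 1. Of the 36 within-library ratios among the 9 genes, 28 did not overlap between the groups and 8 did, beside 81.8% without overlap among the 19019028 ratios of all listed genes with reads in every library. An exact permutation test of 3 against 3 libraries cannot give a two-sided p below 0.1 for a single ratio. The overlapping ratios were Atp2a2 to Casq2, Casq2 to Hrc, Trdn to Jph2, Jph2 to Cacna1c, Jph2 to Slc8a1, Cacna1c to Slc8a1, Cacna1c to Pln and Slc8a1 to Pln. Each of these joined genes next to or near each other in the order of falls.

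**Figure D2:**
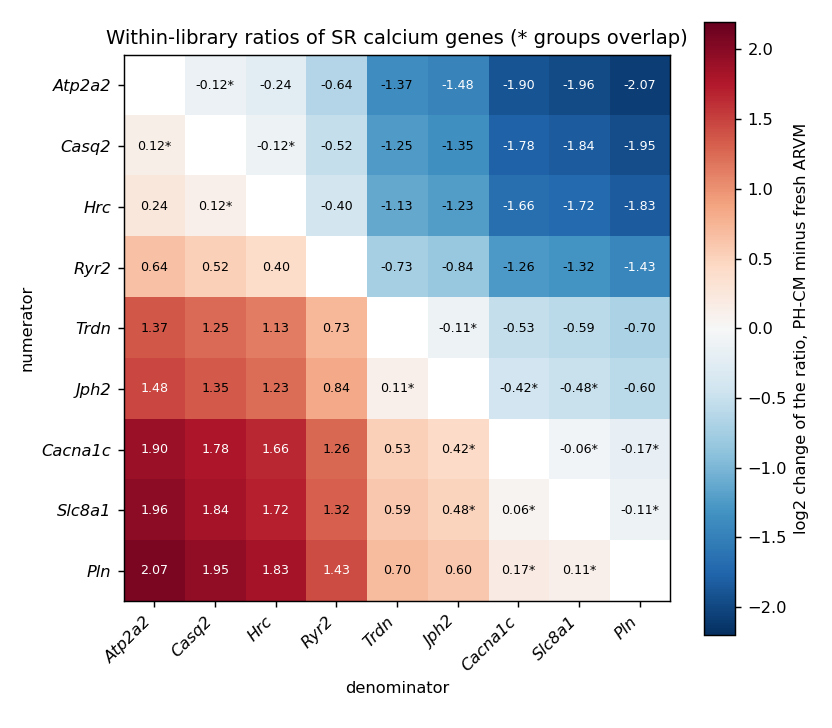
Log2 change (PH-CM minus fresh ARVM) of the within-library ratio of each gene on the left to each gene below, blue where the ratio was lower in PH-CM and red where it was higher, with an asterisk where the libraries of the groups overlapped. The 8 overlapping ratios lay near the diagonal, and the ratios of Atp2a2, Casq2, Hrc and Ryr2 to Pln, from -2.07 to -1.43, were the lowest of their rows. The ratios do not change with the scaling of a library but can change with its mix of cells, which was not tested.

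Marker genes of cardiomyocytes and of other cell types changed in the same libraries too. Of 20 cardiomyocyte markers, 18 were listed, of which 17 were called lower and 1, the slow myosin gene Myh7 (log2 fold change 0.49), higher, with a median of -2.41. Their summed level was 2022480 to 2050330 normalized counts in fresh ARVM and 219880 to 272947 in PH-CM ARVM, an 8.18-fold lower mean. Mb, which encodes myoglobin, fell from 343002 to 3533 normalized counts, and Myh6, which encodes the fast cardiac myosin heavy chain, from 329065 to 6909. Of the 18, 8 fell more than each of Atp2a2, Casq2 and Hrc, and 10 fell less or rose. The log2 fold changes of Atp2a2 (-2.73), Casq2 (-2.61) and Hrc (-2.49) lay below the marker median of -2.41. Beside Ryr2, 12 markers fell more and 6 fell less or rose. Beside each of Slc8a1, Cacna1c, Jph2 and Trdn, 15 fell more and 3 fell less or rose. Beside Pln, 16 fell more and 2 fell less or rose.

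All 16 fibroblast markers were called higher, with a summed level of 6171 to 7903 normalized counts in fresh ARVM and 142050 to 203683 in PH-CM ARVM. Among them, Col3a1 (collagen III) had a log2 fold change of 5.79 and S100a4 one of 4.71, and Mfap5 was at 0 in all fresh libraries. Of 10 smooth muscle and pericyte markers, 8 were called higher and 2 lower, the sum going from between 4565 and 5218 to between 31413 and 49789, with Tagln at 6.35 and Acta2 at 5.07. Macrophage and leukocyte markers were called higher for 11 of 12 (Lyz2, 7.26) and lower for 1 (Cd74, -3.90), their sum going from between 6952 and 7109 to between 8514 and 12332. Endothelial markers were called lower for 9 of 10 (Tie1, -1.56, and Pecam1, -0.93), with sums of 11243 to 13376 and then 4568 to 5298. The 4 erythrocyte markers listed of 6 were called lower, from 2140 to 2548 normalized counts down to 3.39 to 23.3, and Hbb and Hba1 had no reads in PH-CM ARVM, at least 1287-fold and 1274-fold lower against a floor of 3 reads over the group. The part of these changes in the falls of the 9 genes and in the ratios among them was not tested. In such bulk libraries, fewer cardiomyocytes and less RNA of a gene per cardiomyocyte cannot be told apart.

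Set against the summed level of the 18 cardiomyocyte markers in the same library, all 9 genes were called higher in PH-CM ARVM, the reverse of their direction as deposited, as were 96.4% of all listed genes. Per 1000 marker counts, Atp2a2 had 46.3 ± 1.63 (SD, n = 3) counts in fresh ARVM and 57.2 ± 0.888 (SD, n = 3) in PH-CM ARVM, the smallest difference of the 9 at 1.23-fold. Pln went from 16.6 ± 0.878 to 86.4 ± 10.4 (SD, n = 3), or 5.21-fold, the largest. The libraries of the groups did not overlap for any of the 9 on this scale either. The share of all listed genes without overlap was not computed on this scale, so this is no result about the 9. With this scaling the log2 fold changes were 0.30 for Atp2a2, 0.43 for Casq2, 0.55 for Hrc and 0.94 for Ryr2, and between 1.67 and 2.38 for the other 5, while the median over all listed genes was 3.40.

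Mb and Myh6 made up 32.9% to 33.2% of the marker sum in fresh ARVM and 3.85% to 4.64% in PH-CM ARVM. With them left out of the sum, a choice made after their values were seen, Atp2a2 (-0.21), Casq2 (-0.09) and Hrc (0.03) did not pass the test, and the other 6 were called higher, from 0.43 for Ryr2 to 1.86 for Pln, as were 94.5% of all listed genes. The median over all listed genes was then 2.89. The order of the 9 genes, which scaling cannot alter, was the same on each of these scales.

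**Figure D3:**
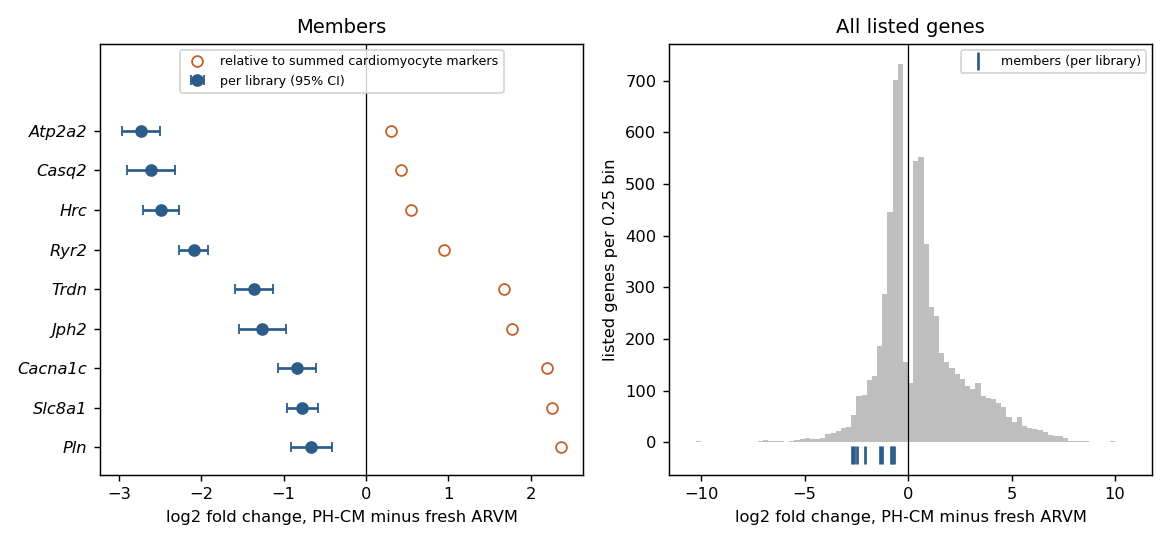
Left, log2 fold change (PH-CM minus fresh ARVM) of each of the 9 genes as deposited (filled points with 95% intervals) and relative to summed cardiomyocyte markers (open points); right, the number of listed ARVM genes per bin of 0.25 in log2 fold change as deposited, with the 9 genes as ticks below. All 9 lay between -2.73 and -0.66 as deposited and between 0.30 and 2.38 relative to the markers. On the latter scale the median over all listed genes was 3.40.

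Around these genes, 9 lists of calcium handling genes by role held 144 genes, the 9 included, of which 86 were listed for ARVM. All 86 passed the test as deposited, 34 of them higher and 52 lower. Of all listed genes 97.6% passed, 53.9% higher and 43.7% lower, so passing is itself no result about these lists. Their median change was -0.53 on the log2 scale, beside 0.37 over all listed genes. Without the 9 they were 77, of which 34 were higher and 43 lower, with a median of -0.40. Relative to the summed cardiomyocyte markers, 84 were called, all 84 of them higher, and Sln and Atp2b2 no longer passed, where 96.4% of all listed genes were called higher. The directions of the lists that follow are those of the values as deposited, and their counts stand beside the shares of 53.9% higher and 43.7% lower.

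The SR side of the lists fell and the general endoplasmic reticulum side rose, as deposited. SR calcium uptake had 3 of 9 genes listed, all lower (median -2.73). Beside Atp2a2 and Pln these included Sln, sarcolipin, another small inhibitor of SERCA, which went from 163 ± 5.84 (SD, n = 3) to 14.2 ± 1.79 (SD, n = 3) normalized counts, a log2 fold change of -3.44 (limma adjusted p = 8.43e-06). SR release and store had 11 of 18 listed, 9 lower and 2 higher (median -1.36). Casq1, the skeletal muscle calsequestrin (-2.27), and Tmem38a, a counter-ion channel of the SR (-1.58), fell, and Sri, the calcium binding protein sorcin (0.69), rose. Fkbp1b, a small binding partner of the ryanodine receptor, had no reads in the fresh libraries and 10.02 ± 2.26 (SD, n = 3) normalized counts in PH-CM ARVM, at least 8.46-fold higher against a floor of 3 reads over the group.

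By contrast, ER luminal calcium binding had 11 of 14 genes listed and all 11 were higher (median 0.80). Rcn3, a reticulocalbin of the secretory pathway, rose from 118 ± 36.0 (SD, n = 3) to 2881 ± 737 (SD, n = 3) normalized counts, a log2 fold change of 4.61 (limma adjusted p = 2.52e-06), and Nucb2, nucleobindin 2, rose by 2.08. The genes of this list serve the general ER of many cell types, and the fibroblast markers rose in the same libraries, a link that was not tested.

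In the list of dyad and T tubule structure, 10 of 15 genes were listed, 8 lower and 2 higher (median -1.12). Cav3, muscle caveolin (log2 fold change -2.33), and Nexn, nexilin (-2.09), fell, whereas Bin1, which shapes T tubules in muscle and has forms in other cells, rose by 2.28. Jph4, a junctophilin of neurons, had no reads in fresh ARVM and 6.12 ± 3.67 (SD, n = 3) normalized counts in PH-CM ARVM, at least 5.17-fold higher.

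Channel subunits went both ways. Of 20 genes of L-type and T-type channels and their small regulators, 11 were listed, 7 higher and 4 lower (median 1.86, or 1.79 with genes without reads at their bound). Cacnb3, a beta subunit, rose from 36.8 ± 7.99 (SD, n = 3) to 540 ± 47.8 (SD, n = 3) normalized counts, a log2 fold change of 3.86, and Cacnb4, absent from fresh reads, was at least 6.51-fold higher. Rrad, the GTPase Rad that holds the L-type channel back, fell from 27258 ± 268 (SD, n = 3) to 4953 ± 837 (SD, n = 3), a log2 fold change of -2.47 (limma adjusted p = 7.71e-07), and Cacna2d1, the alpha2delta subunit, fell by 0.58 on the log2 scale. The fall of Cacna1c thus stood among rises of most other genes of its list as deposited, by number of genes. Cacnb3 and Cacnb4 rose from low or absent counts. The summed level of the list, in which Rrad was the most abundant gene in fresh ARVM, went from between 30449 and 31181 to between 7541 and 9373 normalized counts.

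Sarcolemmal extrusion had 5 of 9 genes listed, 4 lower and 1 higher (median -0.77). Atp2b2, a calcium pump of the cell membrane, fell from 142 ± 26.0 (SD, n = 3) to 10.1 ± 3.33 (SD, n = 3) normalized counts (log2 fold change -3.72), Fxyd1, phospholemman, had -1.61, and the pump gene Atp2b4 rose by 1.15. Kinases, phosphatases and anchors of calcium cycling had 21 of 31 listed, 17 lower and 4 higher (median -0.73). The anchor gene Akap6 (-2.22) and the phosphodiesterase gene Pde4b (-1.93) fell, and Prkar2b, a regulatory subunit of protein kinase A (4.36), and the anchor gene Akap5 (3.89) rose from means of 11.01 and 15.2 normalized counts. Store-operated entry and IP3 receptors had 7 of 16 listed, 5 higher and 2 lower (median 1.05).

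In that list Trpc6, a receptor-operated channel gene, had 0, 8.57 and 33.1 normalized counts in fresh ARVM and 108, 97.5 and 118 in PH-CM ARVM. Its log2 fold change was 3.98 (SE 1.11, limma adjusted p = 0.00923), which was 2.59 without fresh ARVM 4 and 5.13 without fresh ARVM 6. Orai2 had 3.90, while Trpc1 (-0.78) and Orai1 (-0.50) fell. Mitochondrial calcium uptake had 7 of 12 listed, 5 lower and 2 higher (median -0.86). The outer membrane channel genes Vdac1 (-1.65) and Vdac3 (-1.09) fell, and Slc8b1, the mitochondrial sodium-calcium exchanger (1.45), rose.

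**Figure D4:**
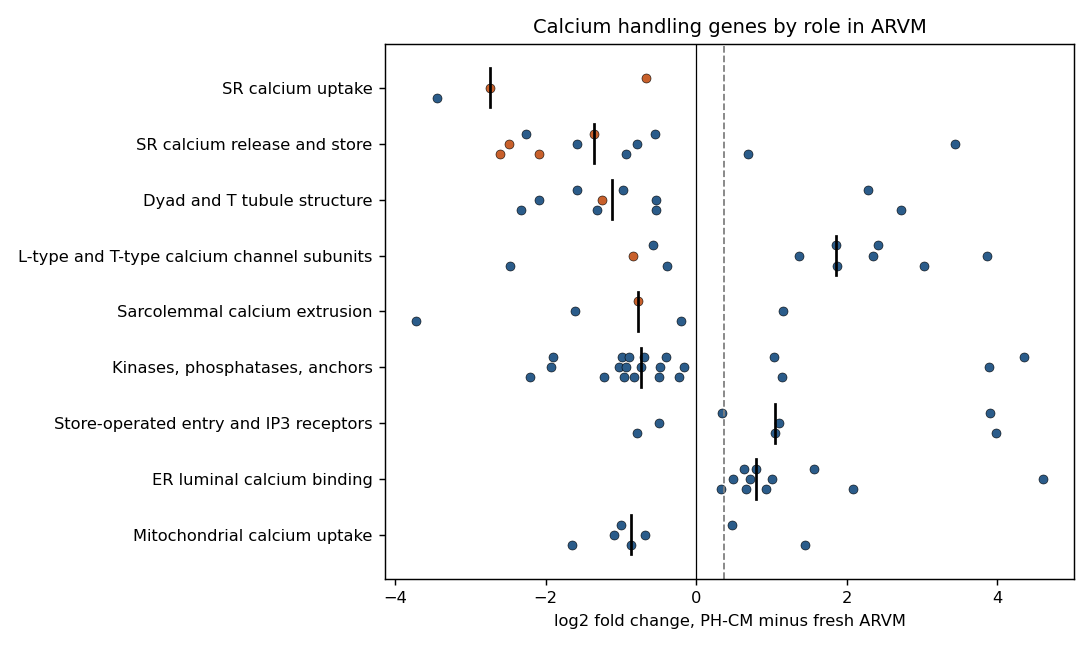
Log2 fold change (PH-CM minus fresh ARVM, as deposited) of the 86 listed calcium handling genes by role, with the 9 SR calcium handling genes in orange, other genes in blue, the median of each list as a black bar and the median of all listed genes (0.37) as a dashed line. Medians ran from -2.73 for SR calcium uptake to 1.86 for channel subunits, and all 11 genes of ER luminal calcium binding lay above 0. Relative to summed cardiomyocyte markers all 84 called genes were higher, as were 96.4% of all listed genes.

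The 5 listed genes whose centred log2 values lay nearest to the mean pattern of the 9 over the 6 ARVM libraries were Mrps36, Lims2, Gbas, Dlat and Schip1. Their root mean square difference from that pattern was 0.0381 to 0.0512 on the log2 scale, and their log2 fold changes ran from -1.70 to -1.58.

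In Cfib, which differ from ARVM in species and in how values were scaled, SLC8A1 was the only one of the 9 genes listed, and it was higher in PH than in CO as deposited. The Cfib values are scaled by gene length and by library, their exact unit is not given in the sources used here, and the read depth is unknown. SLC8A1 stood at 2.49, 3.09 and 0.428 in CO Cfib 1, 2 and 3 and at 7.67, 7.36 and 7.11 in PH Cfib 1, 2 and 3. The PH libraries lay close together and above all CO libraries, among which CO Cfib 3 was the lowest by far. The mean went from 2.001 ± 1.39 (SD, n = 3) to 7.38 ± 0.283 (SD, n = 3), or 3.69-fold higher. On the scale of log2(value + 1) the change was 1.62 (SE 0.38, 95% interval 0.71 to 2.53, limma adjusted p = 0.00600).

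Without CO Cfib 3 the log2 fold change of SLC8A1 was 1.15 (limma adjusted p = 3.62e-05), and with a pseudocount of 10 it was 0.54. Its adjusted p ran from 3.62e-05 to 0.102 over the alternatives, the highest with the PH libraries averaged into 1 sample. The median coefficient of variation over all listed genes was 13.7% in CO Cfib and 5.01% in PH Cfib. At adjusted p under 0.05, 97.5% of the listed Cfib genes were called, 58.2% higher and 39.4% lower. The libraries did not overlap for 100% of them, 59.7% being higher. Calls with a log2 rise of at least 1, as for SLC8A1, made up 19.7%.

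None of the cardiomyocyte, endothelial or erythrocyte markers was listed for Cfib. The 6 listed fibroblast markers of 16 were all called higher in PH, with COL1A2 at 1.52 and FN1 at 1.81, and their summed level went from between 2413 and 3346 to between 7775 and 8090. Of 7 listed smooth muscle and pericyte markers, 6 were higher and 1 lower (ACTA2, 1.23, and SMTN, 0.56). Among 5 listed macrophage and leukocyte markers, 4 were higher (CD68, 0.51) and 1 lower (CD14, -1.42), and C1QA and C1QB were listed at 0 in CO. Their part in the value of SLC8A1 was not tested.

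Of the 144 calcium handling genes, 21 were listed for Cfib, 17 called higher in PH and 4 lower, with a median of 0.94 beside 0.33 over all listed Cfib genes. Under rescaling by the median of ratios the median over all listed Cfib genes was 0.07, and 49.2% of calls were higher in place of 59.6%. The genes that rose included REM1, a small GTPase that acts on calcium channels (1.66), FXYD1 (1.66), the channel gene TRPC4 (1.57), SPEG, a muscle kinase gene (1.21), and CACNA1G, a T-type channel gene (1.11). ITPR3, an IP3 receptor gene (1.09), PPP1R1A, an inhibitor of protein phosphatase 1 (1.08), S100A1 (1.05), ASPH (0.94), NUCB1 (0.88), SLC8B1 (0.72) and ATP2A3, a SERCA gene of other tissues (0.54), also rose. ORAI3 (-0.72), AKAP7 (-0.47) and PPP1CC (-0.46) fell. These are changes of log2(value + 1), which understate those of low genes, so their order is not that of the fold changes. PPP1R1A rose 3.87-fold from a CO mean of 0.630, and FXYD1 rose 3.12-fold from a CO mean of 25.4. With the PH libraries averaged into 1 sample, S100A1, ASPH, ITPR3 and NUCB1 no longer passed, nor did the markers FN1 and CD68.

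Of these, 16 genes were listed in both tables, which is 18.6% of the 86 in ARVM and 76.2% of the 21 in Cfib. As deposited, 7 were higher in both, 7 were lower in PH-CM ARVM and higher in PH Cfib, and 1 (Akap7) was lower in both. Slc8a1 was among the 7 that went opposite ways, at -0.77 in ARVM and 1.62 in Cfib. The contrasts differ in species, cell, exposure and scale, so the values are set side by side and their difference was not tested.

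**Figure D5:**
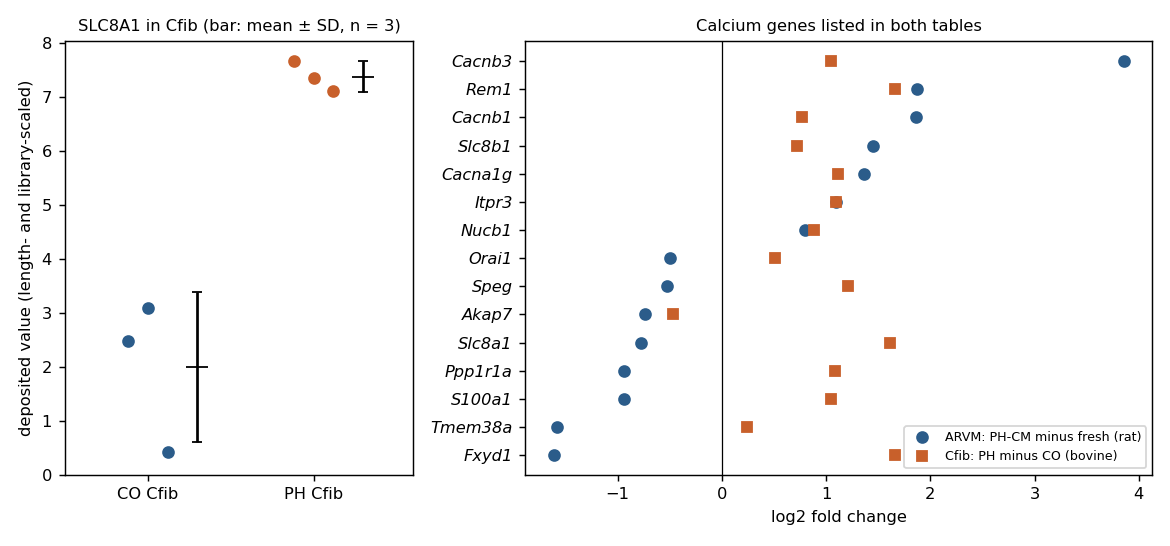
Left, SLC8A1 in each Cfib library (points) with the mean ± SD of 3 libraries (bars), 2.001 in CO and 7.38 in PH; right, log2 fold change as deposited of 15 of the 16 calcium handling genes listed in both tables, circles for ARVM (PH-CM minus fresh) and squares for Cfib (PH minus CO). Slc8a1 lay at -0.77 for ARVM and at 1.62 for Cfib, and relative to summed cardiomyocyte markers its ARVM value was 2.26.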

How the data were processed

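RNA-seq tables of 6 rat ARVM libraries and 6 bovine Cfib libraries were analysed. Per the study's methods, the authors aligned reads to rn6 and BosTau8 with HISAT2 and StringTie, scaled the counts geometrically (DESeq2) and kept genes with a value above 1. Each deposited value is a signal of 1 gene in 1 library. In the ARVM table this signal is a read count divided by a size factor, since 100% of values were whole multiples of 1 step per library within 0.01 reads (12122463 to 18842171 reads on listed genes). In the Cfib table it is scaled by length and library, with depth unknown. Only genes the authors had selected for a difference are listed, so adjusted p-values rest on selected genes.

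The log2(value + 1) of the 2 groups of each table was tested by limma 3.58.1 in R 4.3.3, using eBayes with a trend. Adjustment over the whole table followed Benjamini and Hochberg, and the threshold was 0.05. A fold change on this scale understates that of low genes. Recovered ARVM reads were also tested with edgeR 4.0.16 (quasi-likelihood, TMM) and DESeq2 1.42.0. Ratios used exact permutation tests in Python 3.11.15 with scipy 1.17.1. The limma, edgeR and DESeq2 fits were also run on simulated data in which most genes were unchanged. The listed genes were selected for a difference, so those runs give no error rate for them.

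Alternatives were a pseudocount of 0.1 or 10, a minimum mean of 50 (ARVM) or 5 (Cfib), the median of ratios, eBayes without trend, each library left out, a log2 fold change of at least 1, scaling to cardiomyocyte markers, and, for Cfib, a replicate block and averaged PH libraries. The edgeR fit without a filter, the marker sum without Mb and Myh6 and the separate value without CO Cfib 3 were added after values were seen.

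The 9 genes and the lists were chosen with earlier results of these data known. Named beside the 9 were, by a rule, up to 4 called genes per calcium list (2 largest rises, 2 largest falls), the 2 most abundant genes per marker list and the 5 genes nearest in pattern. Myh7, Mfap5, C1QA, C1QB and Cep85l were named after their values were seen. 1 gene that the rule names is not reported here. Promoter sequences are those of RefSeq for GRCr8.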

Additional observations from a re-analysis of the deposited data

How the results depend on the processing

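All 9 ARVM genes stayed called lower with either other pseudocount, the minimum mean, the median of ratios, no trend, edgeR, DESeq2 and each library left out (9 to 9), 6 of them with a log2 fold change of at least 1. Relative to summed cardiomyocyte markers their log2 fold changes reversed, to Atp2a2 0.304, Ryr2 0.94, Pln 2.38, Casq2 0.43, Slc8a1 2.26, Cacna1c 2.201, Jph2 1.78, Trdn 1.67 and Hrc 0.55. On that scale the other falls that reversed were Casq1 0.76, Tmem38a 1.45, Cav3 0.703, Nexn 0.95, Rrad 0.56, Cacna2d1 2.46, Fxyd1 1.43, Akap6 0.82, Pde4b 1.10, Trpc1 2.24, Orai1 2.53, Vdac1 1.39, Vdac3 1.94, Pecam1 2.11, Tie1 1.47, Mrps36 1.33, Lims2 1.33, Gbas 1.405, Dlat 1.404 and Schip1 1.46. With Mb and Myh6 left out of the sum, reversed values were Ryr2 0.43, Pln 1.86, Slc8a1 1.75, Cacna1c 1.68, Jph2 1.26, Trdn 1.16 and Hrc 0.0304, of which Hrc did not pass, while Atp2a2 (-0.21) and Casq2 (-0.09) no longer passed. The scalings lifted all genes, since their construction multiplies every gene of a library by 1 factor. With a library left out, 6452 to 6695 of all 7052 listed ARVM genes were called, and 2917 to 3000 were called lower. Calls among the 86 ARVM calcium genes were 83 to 86 with a library left out, and 47 with a log2 fold change of at least 1, by construction. At a minimum mean of 50, and with edgeR after its filter, there were 82 calls, 30 higher and 52 lower. The low counts of Fkbp1b, Jph4 and Cacnb4 left these genes untested in both of those settings. For Cfib, SLC8A1 was not called with the PH libraries averaged (0 calls), which leaves fewer samples, and was not tested at a minimum mean of 5 (0 calls), as its mean is lower. It was 1 call with any library left out, where 1910 to 2052 of the 2115 listed Cfib genes were called. Of the 21 Cfib calcium calls, 20 to 21 remained in number with a library left out, 12 at a minimum mean of 5 and 10 with a log2 fold change of at least 1. With the replicate block, which assumes that equal numbers belong together, 1983 Cfib genes were called in place of 2063, SLC8A1 (1.62) among them, with 20 calls in place of 21 over the calcium genes. The ARVM groups share no library numbers and were fitted without a block. Nothing in the labels or the study's methods says that CO and PH Cfib libraries of equal number belong together, so the numbers were not taken as pairs. Deviations of Cfib libraries of equal number correlated at 0.258, 0.0312 and 0.259. These values cannot decide on pairing, since libraries of unequal number were not compared. Low values limit SLC8A1 in Cfib, where the depth is unknown.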
